A study of Mus musculus with 36 samples.

Results

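The genes described here guide growing axons and hold neurons together, and they were measured in whole brain of newborn mice. They are all genes on autosomes other than chromosome 10 whose symbols begin with Sema, Plxn, Nrp, Epha, Ephb, Efna, Efnb, Ntn, Slit, Robo, Unc5, Cdh, Pcdh, Cntn, Ncam, Nrxn, Nlgn, Nrcam, L1cam, Dpysl or Itg. A gene was a member when at least 1 of its probes had a detection score above 0.99 on at least 6 of the 18 arrays, and its brightest such probe stood for it. This gave 61 genes of the 4147 genes with a named and detected probe, on 68 of the 15892 detected probes. The arrays held 126 genes of these families. Another 62 were not detected on enough arrays, and 3 were left out for their chromosome (Unc5b on chromosome 10, Nlgn3 and Pcdh11x on X).

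The study compared 3 mouse lines with 6 brains each at postnatal day 0.5: the C10 congenic line (also called A.B6chr10, a name that reads as B6 chromosome 10 material on an A/J background), the inbred B6 mice and the inbred A/J mice. How much of chromosome 10 the congenic line carries, the sex of the pups and their litters are not stated in the labels. RNA of 1 whole brain was hybridised to each array of an Illumina Sentrix Mouse-6 BeadChip, and each array gave a background-subtracted signal per probe. Since litters are not given, p-values measure the spread between these brains only.

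Axons steer by ligands such as semaphorins, netrins, Slits and ephrins, which bind plexins and neuropilins, Unc5 receptors, Robo receptors and Eph receptors on the growth cone. Cadherins, protocadherins, integrins and adhesion molecules of the immunoglobulin family attach cells to each other or to the matrix, and neurexins with neuroligins join both sides of a synapse. In newborn brain many long tracts are still growing and synapses are forming.

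The sequences shown here are the 250 bases before the start of 3 members that were called lower in B6 than in A/J brains and that have 1 start in the RefSeq promoter table (build GRCm38.p6), so that a reader sees the kind of promoter these genes have. Each runs 5′ to 3′ on the gene's strand, and capitals mark each CG, the dinucleotide that can carry DNA methylation.
Cntn2 (chr1:132542941-132543190, minus strand): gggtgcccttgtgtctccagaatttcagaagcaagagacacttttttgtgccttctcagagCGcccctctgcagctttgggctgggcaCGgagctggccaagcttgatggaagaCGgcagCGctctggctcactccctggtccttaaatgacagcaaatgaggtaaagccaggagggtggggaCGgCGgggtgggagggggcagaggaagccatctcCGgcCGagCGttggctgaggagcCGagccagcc
Sema4g (chr19:44989094-44989343, plus strand): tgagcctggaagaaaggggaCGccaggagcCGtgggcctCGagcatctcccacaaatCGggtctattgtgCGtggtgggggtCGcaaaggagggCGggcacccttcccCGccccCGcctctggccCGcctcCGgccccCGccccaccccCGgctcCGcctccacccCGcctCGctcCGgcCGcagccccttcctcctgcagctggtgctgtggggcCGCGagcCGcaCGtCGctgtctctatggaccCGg
Ephb2 (chr4:136836013-136836262, minus strand): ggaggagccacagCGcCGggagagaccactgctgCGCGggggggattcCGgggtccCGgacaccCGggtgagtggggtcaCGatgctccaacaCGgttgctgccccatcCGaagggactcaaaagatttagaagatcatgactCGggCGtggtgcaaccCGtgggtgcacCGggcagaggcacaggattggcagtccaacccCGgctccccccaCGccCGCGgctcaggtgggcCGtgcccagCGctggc
These stretches hold 10, 24 and 20 CG in the order printed. Of the 61 members, 36 were in the table. Their median was 14.5 CG per 250 bases, against 17 for 3315 named and detected genes and 5 for all 27025 genes of the table. CG reads the same on both strands, and at least 1 was found in 100% of the members' stretches, 99.4% of those of the detected genes and 91.6% of all. Median GC content was 64.2% in members, against 60.8% in the detected genes and 52% in all genes. No methylation was measured in this study.

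Of the 61 members, 45 were detected on all 18 arrays (73.8%), against 80.8% of the named genes. Detection differed by family. Both Dpysl genes, all 3 neurexins and neuroligins on the autosomes other than chromosome 10, and 5 of 7 Eph receptors and ephrins were members. By contrast, 3 integrins and 18 protocadherins were members, while 8 integrins and 28 protocadherins were not detected on enough arrays. The undetected genes include Efna2 and Pcdh15 on chromosome 10. Over all these families 62 of 126 genes were not detected on enough arrays, and the share among other genes was not counted. The members just inside the detection threshold were Pcdha8, detected on 7 arrays with a mean signal of 59.2, and Sema3b and Cdh9, detected on 10 arrays with mean signals of 82.1 and 90.9. Just outside it were Pcdha12 and Sema4d, each detected on 4 arrays, with mean signals of 78.4 and 63.8. Signals of different probes do not rank genes by amount of RNA, since probes bind with different strength, so values are compared between lines within a probe only. Genes are named by reading the probe ID's number as a Gene ID, an inference that fits most numbers. Single names may be wrong: Snap25 and Gfap, both known from brain, were not detected under it.

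**Figure D1:**
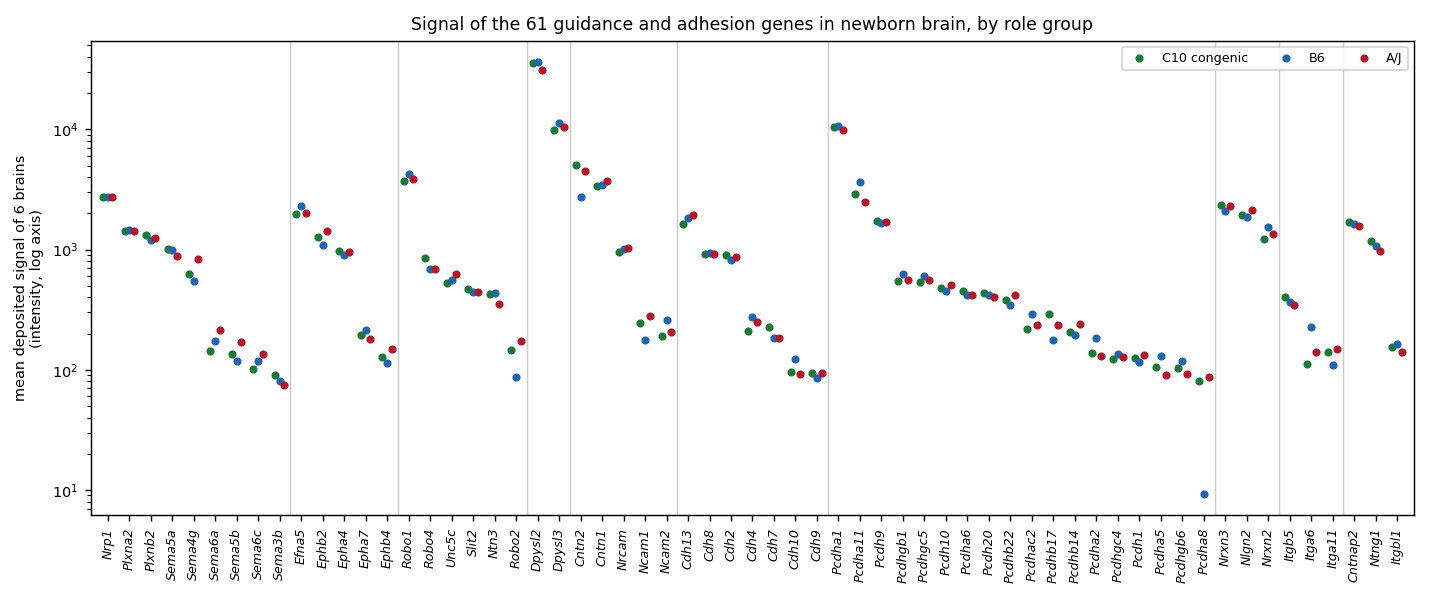
Mean signal of each member's brightest probe (log axis) in each line, by family, for 6 brains a line. The 3 lines' points lie close together for most members and apart for a few, such as Pcdha8, Itga6 and Cntn2.

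In whole tissue, fewer cells of a type and less RNA per cell cannot be told apart. Of the neuron markers on the arrays, 6 of 7 were detected, and their summed signal was 54001 to 60833 in C10 congenic brains, 41781 to 69042 in B6 brains and 54470 to 63423 in A/J brains, with no marker called in any comparison. The astrocyte marker Slc1a2 was not detected. Red blood cell markers moved with line: summed signal was 24068 to 50783 in C10 congenic brains and 9353 to 23232 in B6 brains, against 33787 to 53024 in A/J brains. All 3 were called in both comparisons with B6, with Hba-a1 and Hbb-b2 lower and Hbb-b1 higher in B6. Of 4 marker genes of meninges and fibroblasts, Col1a2 was called in both comparisons with B6, with mean signals of 5.43 in C10 congenic, 254 in B6 and 6.02 in A/J brains. Means of 5.43 and 6.02 are near background, so Col1a2 probably passed the detection threshold only through B6 brains. Its calls are therefore a description only. Of 3 microglia markers, Csf1r was called higher in C10 congenic than in B6 brains, at 0.56 (limma adjusted p = 0.0112), with means of 362 in C10 congenic, 222 in B6 and 308 in A/J brains. No marker of radial glia (3 detected), astrocytes (1), vessels (1) or choroid plexus (1) was called, and Pax6 and Olig2 were not detected. The part of these cell types in the results below was not tested. For Xist, expressed from the inactive X, A/J brain 6 reached 7076.6 while the other 17 brains ranged over −23.8 to 23. On the Y chromosome, Eif2s3y gave −7.3 in that brain, against 1496.8 to 2851.9 in the others, and Kdm5d gave −2.9, against 233.2 to 549.1, so it differs from all the others in the genes that mark sex. In addition, C10 congenic brain 3 and B6 brain 4 correlated least with their own line (median r = 0.954 and 0.961, across probes). The fit was run again without each brain in turn, and read for the member counts, the 27 members named with values and Sema6a. Its results are not given for these markers, for second probes or for genes outside these families.

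Between C10 congenic and A/J brains no member was called. A gene was called when limma's p, adjusted by the Benjamini-Hochberg method over all 15892 detected probes, was under 0.05, and 0.844% of named genes were called here. At an unadjusted p under 0.05 there were 6 of 61 members (9.84%), against 15.2% of named genes: Cdh7, Dpysl2 and Ntng1 with positive and Cdh13, Sema4g and Sema6a with negative log2 differences. The members' log2 differences ran from −0.41 to 0.26 with a median of −0.01, against −0.04 over named genes. None reached 0.5 in size, against 1.69% of named genes. The median size was 0.116 in both sets, close to the median standard error of 0.124 in members.

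Between C10 congenic and B6 brains 6 members were called, 9.84% of 61, against 10.4% of named genes. Cntn2, Robo2, Ncam1 and Pcdha8 were higher in C10 congenic brains (4 members, against 4.03% of named genes called higher) and Itga6 and Ncam2 lower (2 members, against 6.37% of named genes called lower). Between B6 and A/J brains 9 members were called, 14.8% of 61, against 15.3% of named genes. Here Itga6, Pcdha11 and Pcdha2 were higher in B6 (3 members, against 7.33%) and Cntn2, Robo2, Ncam1, Sema4g, Ephb2 and Pcdha8 lower in B6 (6 members, against 7.96%). Both shares are near the share of all named genes, so the number of calls is no result particular to these families. The comparisons share brains: B6 stands in both of these, and the 5 members called in both (Cntn2, Itga6, Ncam1, Pcdha8, Robo2) rest on the same 6 B6 arrays. Pcdha8 passed the detection threshold only through C10 congenic and A/J brains, so it had to differ from B6. Without it, 5 of 60 members were called between C10 congenic and B6 brains and 8 of 60 between B6 and A/J brains.

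The medians of the members' log2 differences were 0.04 for C10 congenic minus B6 and 0.02 for B6 minus A/J, against −0.01 and −0.03 over named genes. Differences of at least 0.5 in size were found in 4 members (6.56%, against 6.70% of named genes) and 5 members (8.20%, against 7.52%), Pcdha8 among them both times. In all, 10 of 61 members, Pcdha8 among them, were called in at least 1 comparison and 51 in none. The matching share of named genes was not counted, so this is a tally and no result about these families.

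**Figure D2:**
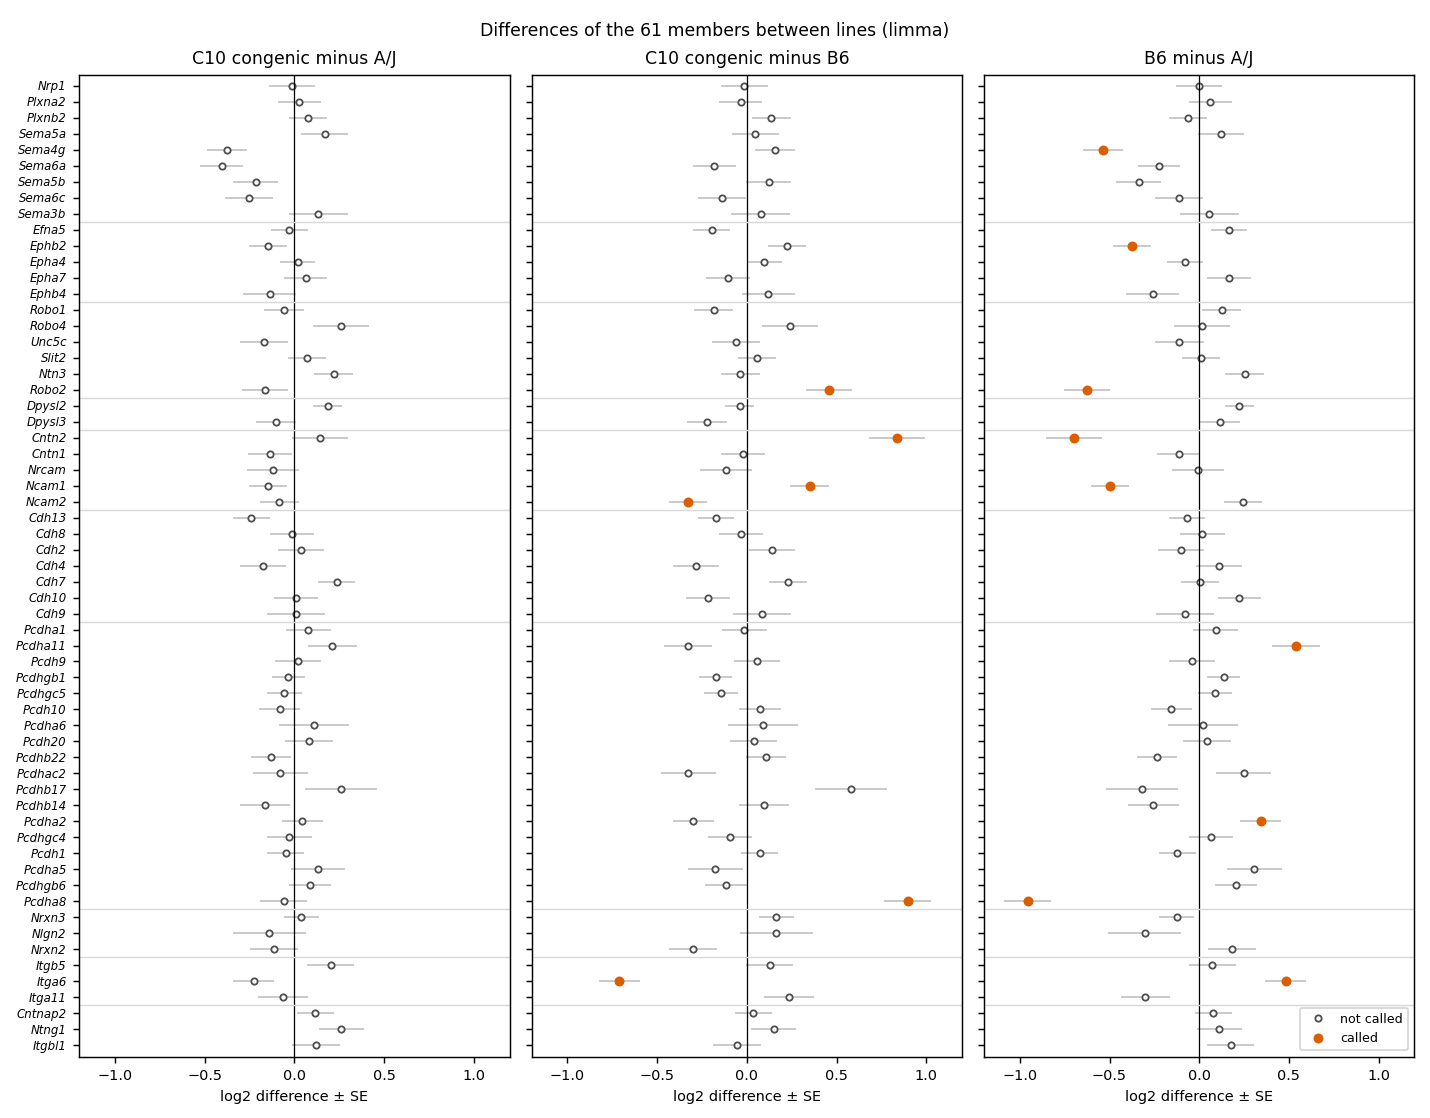
Log2 difference of every member by family in the 3 comparisons, with called members marked (limma, adjusted p under 0.05). All differences between C10 congenic and A/J brains lie between −0.41 and 0.26, while those with B6, leaving aside Pcdha8, reach −0.71 and 0.84.

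Among the secreted and membrane ligands of the semaphorin system, Sema4g (chromosome 19), a transmembrane semaphorin, was called. Its signal had lowest, median and highest values of 532.3, 617 and 756.8 in C10 congenic brains, 468.6, 560.9 and 599.6 in B6 brains, and 740.9, 776.5 and 1191.8 in A/J brains. Every A/J brain lay above every B6 brain, while C10 congenic and A/J brains overlapped. The log2 difference of B6 minus A/J was −0.53 (SE 0.111, limma adjusted p = 0.0013). For C10 congenic minus A/J it was −0.38 (adjusted p = 0.105) and for C10 congenic minus B6 0.16 (adjusted p = 0.398), neither of them called. Sema6a, on chromosome 18 and singled out after its values were seen, had the most negative difference between C10 congenic and A/J brains, −0.41 (adjusted p = 0.1). It was called in 1 of the 18 fits that leave out a brain, the one without B6 brain 1 (adjusted p = 0.0498). The other semaphorins, the 2 plexins Plxna2 and Plxnb2 and the neuropilin Nrp1, a shared receptor of class 3 semaphorins and VEGF, were not called. Plxna2 had medians of 1393.6 in C10 congenic, 1435.2 in B6 and 1503.2 in A/J brains. Nrp1 had medians of 2818.9 in C10 congenic, 2856 in B6 and 2638.2 in A/J brains.

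Of the 6 netrins, Slits and their receptors, Robo2 (chromosome 16), a Slit receptor that keeps axons away from the midline, was called. Its values were 94.7, 148.6 and 196.2 in C10 congenic brains, 43.5, 94.1 and 133.6 in B6 brains (detected in 3 of 6), and 141, 175.8 and 200.3 in A/J brains (lowest, median, highest). B6 brains lay below all A/J brains and overlapped with C10 congenic brains. The log2 difference was −0.62 for B6 minus A/J (adjusted p = 0.00112) and 0.46 for C10 congenic minus B6 (SE 0.128, adjusted p = 0.0187). The second call was lost without B6 brain 3, B6 brain 4 or C10 congenic brain 3 (adjusted p of 0.0513 to 0.0539). Between C10 congenic and A/J brains it was −0.17 (adjusted p = 0.561). With no value added to the signal before log2 (signals under 16 set to 16), the differences with B6 were larger, −1.06 for B6 minus A/J and 0.80 for C10 congenic minus B6, and both were called. Over the 9 other settings of the fit they ran from −1.06 to −0.43 and from 0.31 to 0.80. Robo1, a related Slit receptor that neighbours Robo2 on chromosome 16, was detected in all brains and was not called: its medians were 3824.6 in C10 congenic, 4622 in B6 and 3741.4 in A/J brains. Slit2, one of the ligands of both, had log2 differences between 0.01 and 0.07 in the 3 comparisons, and the endothelial Robo4, Unc5c and Ntn3 were not called either. Robo4 had medians of 843.8 in C10 congenic, 670.2 in B6 and 746 in A/J brains.

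Ephb2 (chromosome 4), an Eph receptor that binds ephrin-B ligands and acts at axons and synapses, had values of 1072.9, 1302.2 and 1440 in C10 congenic brains, 924.9, 1056 and 1292.7 in B6 brains and 1063.1, 1501.6 and 1562.1 in A/J brains. B6 and A/J brains overlapped through A/J brain 1 alone, the lowest of its line, and C10 congenic brains overlapped with both. B6 minus A/J was −0.37 (SE 0.107, limma adjusted p = 0.0173), and C10 congenic minus B6 was 0.23 (adjusted p = 0.188). Epha4, Epha7, Ephb4 and the ligand Efna5 were not called. Efna5 had medians of 2010 in C10 congenic, 2242.6 in B6 and 2016.2 in A/J brains.

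The growth cone proteins Dpysl2 and Dpysl3 (also known as CRMP2 and CRMP4), which act in the cell downstream of semaphorins on microtubules, were not called. Dpysl2 had lowest, median and highest signals of 33670.1, 35117.4 and 40832.3 in C10 congenic brains, 35500.9, 36001.4 and 37534.8 in B6 brains and 29102.3, 30678.8 and 33119.8 in A/J brains. Every C10 congenic brain and every B6 brain lay above every A/J brain. The differences were nonetheless small: 0.18 for C10 congenic minus A/J (SE 0.080, adjusted p = 0.27) and 0.22 for B6 minus A/J (adjusted p = 0.0573). The difference between B6 and A/J passed the threshold under 3 of 10 other settings. Dpysl3 had medians of 10638.8 in C10 congenic, 11026.6 in B6 and 10401.9 in A/J brains.

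Of the 5 immunoglobulin adhesion molecules, Cntn2, Ncam1 and Ncam2 were called in at least 1 comparison, which is too few genes to set a share against the 10.4% and 15.3% of named genes. Cntn2 (chromosome 1, also known as TAG-1), a contactin found on the surface of growing axons, had lowest, median and highest signals of 3571.7, 5142.6 and 6689.5 in C10 congenic brains, 2476, 2561.4 and 3398.9 in B6 brains and 2982.3, 4802.3 and 5142.1 in A/J brains. C10 congenic brains lay above all B6 brains, and A/J brains overlapped with B6 through A/J brain 1. The log2 difference was 0.84 for C10 congenic minus B6 (SE 0.156, adjusted p = 0.000446), −0.70 for B6 minus A/J (adjusted p = 0.00273) and 0.14 for C10 congenic minus A/J (adjusted p = 0.699). A second, dimmer Cntn2 probe, detected on 13 arrays, had differences of the same sign that were not called: 0.23 for C10 congenic minus B6 (adjusted p = 0.25) and −0.21 for B6 minus A/J (adjusted p = 0.265). Its signal was 128 ± 31.7 in C10 congenic, 96.8 ± 18.6 in B6 and 125 ± 32.5 in A/J brains (SD, n = 6).

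Ncam1 and Ncam2, neural cell adhesion molecules that bind their like on the next cell, differed in opposite directions between C10 congenic and B6 brains. Ncam1 (chromosome 9) had values of 215.6, 233.4 and 285.7 in C10 congenic brains, 143.1, 176 and 215.6 in B6 brains and 194.5, 282.8 and 335.6 in A/J brains. B6 brains were low, touching the C10 congenic brains at 1 value, and overlapping with A/J brains. The log2 difference was 0.35 for C10 congenic minus B6 (SE 0.107, adjusted p = 0.0319) and −0.50 for B6 minus A/J (adjusted p = 0.00176). The first call was lost without B6 brain 4, 5 or 6 or C10 congenic brain 1 or 4 (adjusted p of 0.0608 to 0.0795). Ncam2 (chromosome 16) had values of 163.4, 184.4 and 220.8 in C10 congenic brains, 178.1, 270.2 and 340.9 in B6 brains and 162.6, 210 and 232.9 in A/J brains. It was lower in C10 congenic than in B6 brains, with a log2 difference of −0.33 (SE 0.108, adjusted p = 0.0482), but the call was lost in 14 of the 18 fits that leave out 1 brain (with an adjusted p of up to 0.12). B6 minus A/J was 0.24 (adjusted p = 0.132). Cntn1, with medians of 3471.5 in C10 congenic, 3614.8 in B6 and 3661.1 in A/J brains, and Nrcam were not called.

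Itga6 (chromosome 2), an integrin subunit that binds laminin, had values of 60.1, 112.1 and 159.4 in C10 congenic brains, 177.6, 225.7 and 284.1 in B6 brains and 125.4, 137.4 and 158.5 in A/J brains. All 6 B6 brains lay above all 12 brains of the other lines. The log2 difference was −0.71 for C10 congenic minus B6 (SE 0.114, adjusted p = 6.96e-05) and 0.48 for B6 minus A/J (adjusted p = 0.00414). Between C10 congenic and A/J brains it was −0.23 (adjusted p = 0.35). With no value added to the signal before log2, C10 congenic minus B6 was −1.07, and over the 9 other settings it ran from −1.07 to −0.52. Itga11 and Itgb5 were not called. Itgb5 had medians of 386.8 in C10 congenic, 344.8 in B6 and 349 in A/J brains.

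**Figure D3:**
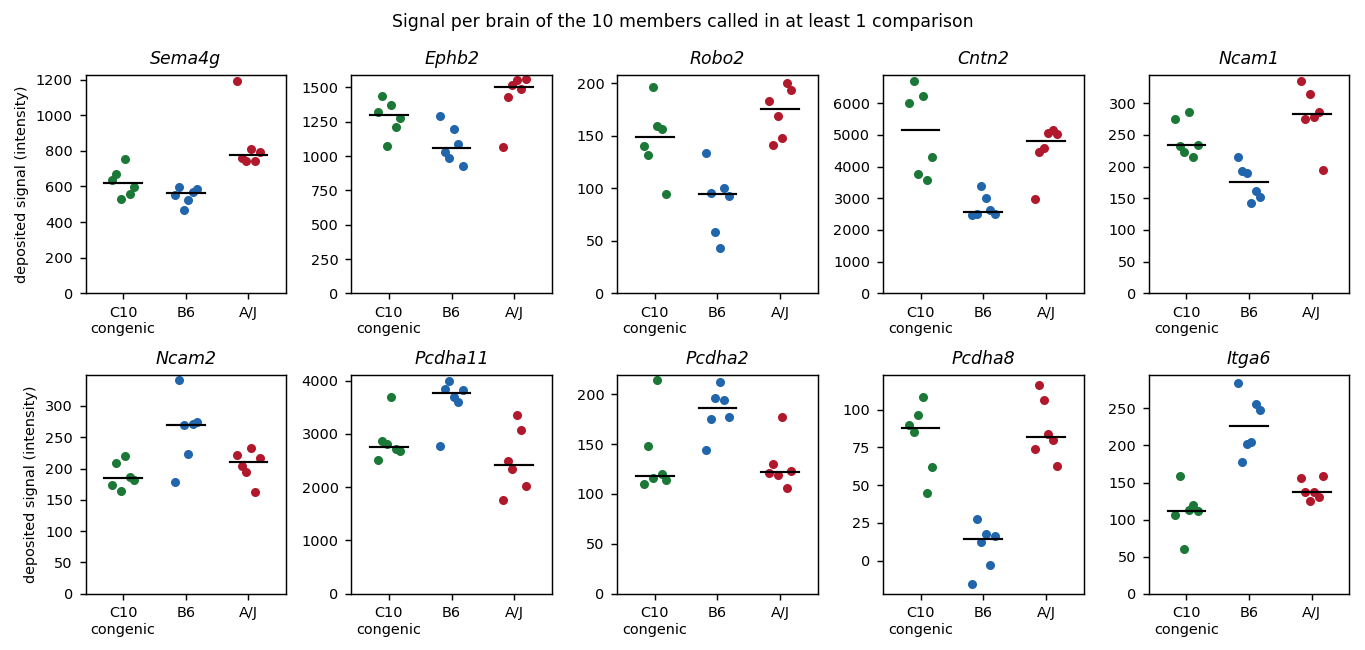
Signal of each called member in each brain, with the line's median (bar), for C10 congenic, B6 and A/J brains, 6 a line. In Itga6 every B6 brain sits above every other brain, in Pcdha8 below, and in Cntn2 every C10 congenic brain sits above the B6 brains.

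The 18 protocadherin members are mostly the clustered protocadherins on chromosome 18, whose isoforms give single neurons a surface identity. The genes of the alpha cluster share their last exons, as do those of the gamma cluster, and where in the gene each probe binds is not stated in the labels. Signals of the Pcdha genes, or of the Pcdhg genes, may therefore not be separate. Genes of a cluster also neighbour each other, so they are not independent. Of these 18, 1 was called higher in C10 congenic than in B6 brains (against 4.03% of named genes). In B6 against A/J brains 2 were called higher (against 7.33%) and 1 lower (against 7.96%). Pcdha8 had signals of 45, 87.5 and 108.4 in C10 congenic brains (detected in 4 of 6), −15.3, 14.5 and 27.8 in B6 brains (detected in none) and 62.5, 81.8 and 116.4 in A/J brains (detected in 3). In B6 brains it was not above background, and no fold is given. All 6 B6 brains lay below all 12 brains of the other lines. Since the gene could become a member only through those lines, its calls against B6 are a description and carry no p here.

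Pcdha11 and Pcdha2 had the opposite direction. Pcdha11 had values of 2508, 2759 and 3688.2 in C10 congenic brains, 2764.2, 3764.8 and 3997.2 in B6 brains and 1765.2, 2418.8 and 3356.9 in A/J brains, which overlapped. B6 minus A/J was 0.54 (SE 0.136, adjusted p = 0.00702) and C10 congenic minus B6 was −0.33 (adjusted p = 0.125). Without B6 brain 1, the lowest of its line, C10 congenic minus B6 was called (adjusted p = 0.0484). Pcdha2 was higher in B6 than in A/J brains by 0.34 (SE 0.113, adjusted p = 0.0394), a call lost in 10 of the 18 fits without 1 brain (adjusted p of 0.0542 to 0.0881). With no value added to the signal before log2, it was 0.51, and over the 10 other settings it ran from 0.25 to 0.51. Its values were 110.4, 118.2 and 214 in C10 congenic, 143.8, 185.6 and 212.5 in B6 and 106, 121.8 and 176.9 in A/J brains.

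Pcdhb17, of the neighbouring beta cluster, had a difference of 0.58 for C10 congenic minus B6 (SE 0.200, adjusted p = 0.0603) and was not called. Its values were 177.4, 316 and 372.1 in C10 congenic brains, 87.9, 161.8 and 334.3 in B6 brains and 97.3, 251.8 and 317.3 in A/J brains, all overlapping. The call was gained without A/J brain 4, B6 brain 6 or C10 congenic brain 4 (adjusted p of 0.0106 to 0.033). It was also gained with the replicate number fitted as a block (limma adjusted p = 0.00418). The lowest value of each line was that of brain 4. Pcdha1, Pcdha5, Pcdha6, Pcdhac2, Pcdhb14, Pcdhb22 and the 4 gamma cluster members were not called, nor were Pcdh1, Pcdh9 and Pcdh20, which lie outside the clusters. Pcdha1 had medians of 10515.8 in C10 congenic, 11218.2 in B6 and 9718.8 in A/J brains.

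The classical and other cadherins gave no calls among 7 members, with log2 differences from −0.28 to 0.23 over all comparisons. Cdh13, a cadherin anchored to the membrane by lipid, had medians of 1659 in C10 congenic, 1861 in B6 and 1942.6 in A/J brains. Cdh8 had medians of 913 in C10 congenic, 942.4 in B6 and 936.1 in A/J brains. The synaptic adhesion genes Nrxn2, Nrxn3 and Nlgn2 were also not called. Nrxn3 had medians of 2409 in C10 congenic, 2130.2 in B6 and 2246 in A/J brains. Nlgn2, of inhibitory synapses, had medians of 2010 in C10 congenic, 1968.3 in B6 and 2118.8 in A/J brains, with a wide B6 range of 637.7 to 2671.9. The related genes Cntnap2, Ntng1 and Itgbl1, which matched by the start of their symbols and were grouped apart, were not called either. Cntnap2 had medians of 1746.2 in C10 congenic, 1646.4 in B6 and 1460.2 in A/J brains. Those of Ntng1 were 1168.8 in C10 congenic, 1205 in B6 and 945 in A/J brains.

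A second kept probe existed for 7 members. The brightest Pcdh10 probe was not called, at −0.08 for C10 congenic minus A/J (adjusted p = 0.77) and −0.16 for B6 minus A/J (adjusted p = 0.399). Its other probe, singled out after its values were seen, had signals of 246.9, 293.9 and 452.5 in C10 congenic brains, 221.6, 261.3 and 323.1 in B6 brains and 314.6, 617.2 and 653.7 in A/J brains. A/J brains were mostly high, and the C10 congenic and B6 ranges both reached into theirs. Differences were −0.74 for C10 congenic minus A/J (SE 0.141, adjusted p = 0.0189), −0.88 for B6 minus A/J (adjusted p = 5.96e-05) and 0.15 for C10 congenic minus B6 (adjusted p = 0.557). The probes of this protocadherin, an adhesion molecule of the delta group, thus disagree, and the cause was not tested. Sequence differences between strains under the probes were not tested for any member.

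**Figure D4:**
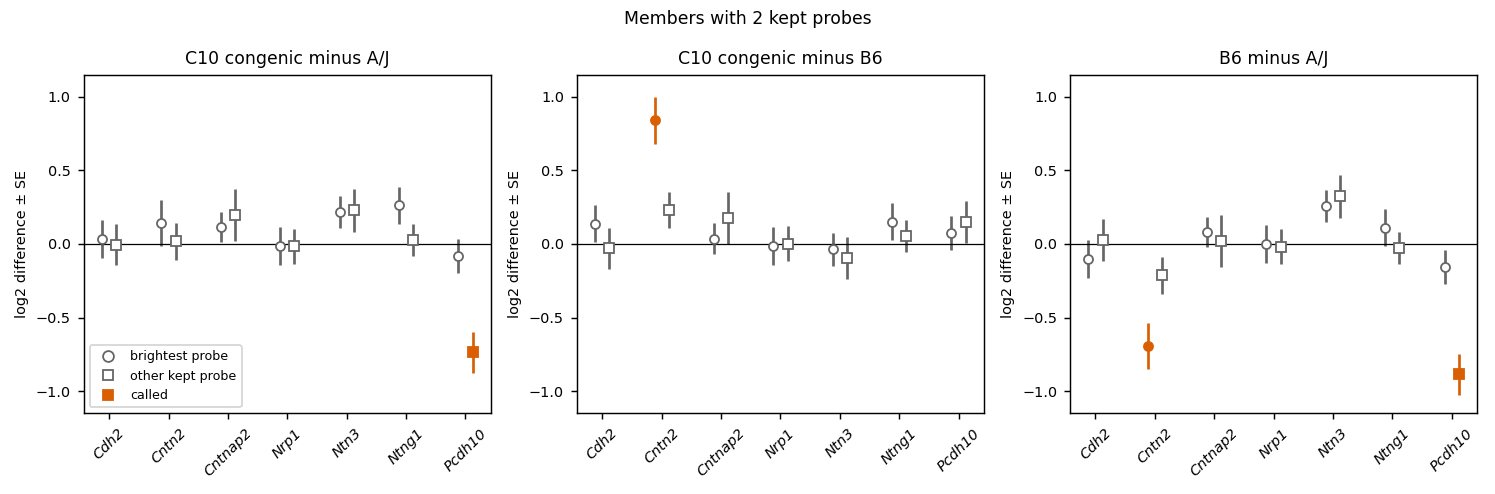
Log2 differences of the brightest (first) and the other kept probe of the 7 members with 2, in the 3 comparisons, with standard errors. Both Pcdh10 probes lie apart in the comparisons with A/J, at −0.08 and −0.74 for C10 congenic and at −0.16 and −0.88 for B6.

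Other genes of guidance and adhesion, outside these symbols, were read from a list of 72 (partners, signalling proteins and other adhesion genes), of which 47 were on the arrays and 38 detected. The list was chosen with earlier results of these data known, so its shares describe it and show no enrichment. In C10 congenic against A/J brains 1 of 38 was called (2.63%, against 0.844% of named genes), Fat3, a large cadherin, higher by 0.68 (adjusted p = 0.0206). In C10 congenic against B6 brains 5 of 38 were called (13.2%, against 10.4% of named genes), all lower: Celsr1, Pak1, Rgmb, Vangl2 and Rtn4. Between B6 and A/J brains 11 of 38 were called (28.9%, against 15.3% of named genes), 8 higher and 3 lower. The largest was Celsr1, a cadherin of planar cell polarity, with mean signals of 79.8 in C10 congenic, 344 in B6 and 91.1 in A/J brains and a B6 minus A/J difference of 1.32 (adjusted p = 2.79e-08). Its C10 congenic and A/J means, like those of Rgmb (69.8 and 83.6), are near the signals of members just inside the detection threshold. Both genes may have passed that threshold only through B6 brains. Pak1, a kinase downstream of Rac and Cdc42, had means of 430 in C10 congenic, 1197 in B6 and 450 in A/J brains and a difference of 1.28 (adjusted p = 1.29e-09). The list's medians were 0.04, −0.03 and 0.07 in the comparisons C10 congenic minus A/J, C10 congenic minus B6 and B6 minus A/J.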

How the data were processed

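Whole brains of 18 newborn mice were compared, 6 per line, grouped by the sample titles. The authors' files give an intensity per probe, background subtracted and as low as −59, with a detection score, a fraction from 0 to 1. Both are deposited values from BeadStudio per the submitters' processing notes, with no version given. The authors' series table held the same values (largest difference 0). A probe ID's number was read as an NCBI Gene ID only with a leading zero: 82.6% of 11897 such numbers are Gene IDs, against 35.1% to 46.0% after adding 1 to 50, while unpadded numbers did no better than shifted ones. This reading is an inference. The plan described such numbers as padded to 7 digits, but the files pad to several lengths, so any leading zero was accepted, and the literal 7 digits (33 members) became an alternative once the files were seen. Names and chromosomes come from RefSeq (GRCm38.p6).

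Signals plus 75, which brings the lowest to 16, were put on the log2 scale, quantile normalized and fitted with limma 3.58.1 in R 4.3.3 (lmFit, eBayes), with 1 coefficient per line. Probes detected (score above 0.99) on fewer than 6 arrays and 350 control or vector probes were left out. Each array had 14410 to 15733 detected probes, and the number of arrays limits the precision. Log2 differences understate changes of dim probes because of the added 75. The procedure was tested on simulated data.

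Members and lists were chosen with earlier results of these data known. Members named with values are those called, the 2 brightest of each family and those differing by 0.5 or more on the log2 scale, 27 in all. Sema6a, Slit2, Pcdha6 and the Pcdh10 probes were added after their values were seen. The hippocampal arrays were not used here. Same-numbered brains were not treated as pairs, and numbers in file headers differ from those in titles. Of 18 same-numbered pairs, 8 correlated above 0.1 (r from −0.0915 to 0.334). Whether a number marks a shared batch was not tested.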

Additional observations from a re-analysis of the deposited data

Results flagged for a closer look

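In 13 of 81 groups (27 named members in 3 lines), 1 brain lay far from the other 5 by Dixon's criterion (the gap to the nearest brain over the range of the line), where chance gives about 1 in 20. A/J brain 1 did so in 3 called members. It was lowest in Cntn2, at 2982.3 against 4463.6 to 5142.1 in the other A/J brains, and in Ephb2, at 1063.1 against 1430.3 to 1562.1. In Sema4g it was highest, at 1191.8 against 740.9 to 810.2. A/J brain 6 stood high in Ntng1, at 1172.4 against 869.5 to 954.4, and in Robo1, at 4644.9 against 3599.4 to 3759.9.

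Among the Pcdha genes, C10 congenic brain 4 was high in both Pcdha11 (3688.2, against 2508 to 2862.2) and Pcdha2 (214, against 110.4 to 147.8). B6 brain 1 was low in Pcdha11, at 2764.2 against 3602.4 to 3997.2. A/J brain 4 was high in Pcdha2, at 176.9 against 106 to 129.9. The same B6 brain 1 was low in Cdh13, at 1560.7 against 1822.9 to 1978.2. Pcdha2 was highest in brain 4 in B6 too, at 212.5. Brain 4 was also the lowest of each line in Pcdhb17. So it was in Pcdha6, singled out after its values were seen (276.3 in C10 congenic, 281.1 in B6, 230.5 in A/J). In Pcdha11 B6 brain 4 was not the highest, at 3701.1. Across detected probes, brains 4 correlated at 0.334 between C10 congenic and A/J, but at −0.0915 (C10 congenic) and 0.0762 (A/J) with B6. Whether this marks a shared batch was not tested.

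Dpysl2 was high in C10 congenic brain 3, at 40832.3 against 33670.1 to 35980, and in B6 brain 4, at 37534.8 against 35500.9 to 36236.3. That B6 brain was low in Nrp1, at 1838.9 against 2681.3 to 3121.1. These 2 brains correlated least with their own lines.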

How the results depend on the processing

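The comparison of C10 congenic with A/J brains called no member, but 1 with array weights (Ntng1), 1 when each kept probe was counted (a Pcdh10 probe), 1 when the plan's wording, padding to exactly 7 digits, was applied literally (Pcdh10, through its other probe, of 33 members left), and 0 to 1 when each brain was left out in turn. Between C10 congenic and B6 brains, 6 became 3 with no filter on dim probes, 2 with detection required on all 18 arrays (45 members left), 11 with array weights and 3 when a log2 difference of 0.5 was required too, and 4 to 8 when each brain was left out. Between B6 and A/J brains, 9 became 19 with array weights and 5 with a difference of 0.5 required, and 8 to 12 when each brain was left out. The replicate block gave 0, 7 and 11 calls in that order of comparisons. Except for fewer members tested, the cause was not tested. The share of named genes called under each of these settings was not counted, so these counts are no result particular to these families. No called difference changed direction. The calls of Cntn2 and Itga6 in both comparisons with B6, and those of Robo2, Ncam1, Sema4g and Pcdha11 between B6 and A/J, held in all 18 fits without 1 brain and under each other setting of the fit in which they were measured. Requiring a log2 difference of 0.5 as well removed Itga6 (0.48) and Ncam1 (−0.50 when rounded) between B6 and A/J. Ephb2 between B6 and A/J, and Ncam1 and Robo2 between C10 congenic and B6, were lost with no filter (adjusted p = 0.0657, 0.11 and 0.0665), Ncam2 under 7 of 10 alternatives and Pcdha2 under 2 of 10. Signals near background limit Itga6 and Robo2, and Pcdha8 was not detected in any B6 brain.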

Other observations

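Numbers without a leading zero were also read for 5 genes of these families (Itga4, Itgb7, Pcdh12, Robo3 and Sema6b). Of 16535 such numbers, 11.3% are Gene IDs, against 10.9% to 11.4% after shifting them, so no value is given under these names. A padded and an unpadded probe of the same number had uncorrelated levels (r = −0.0117, across 802 genes), against r = 0.391 across 1500 genes between the first 2 padded probes of a gene.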
